A study of Saccharomyces cerevisiae with 144 samples.

Results

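The respiratory chain and ATP synthase genes described here are 33 nuclear genes of Saccharomyces cerevisiae, out of 6465 genes counted in each library. They were chosen by name and function and not by a measured value. They comprise 4 subunits of succinate dehydrogenase (SDH1 to SDH4), the internal NADH dehydrogenase NDI1, 9 subunits of the cytochrome bc1 complex (QCR2, COR1, QCR6 to QCR10, RIP1 and CYT1), cytochrome c (CYC1), 8 subunits of cytochrome oxidase and 10 subunits of ATP synthase. All 33 passed the minimum of 5 T>C reads on average over the libraries, which 5014 genes passed in all. The lowest mean was 12.2 T>C reads (SDH1) and the highest 182 (COX7), and 4 members (COX4, COX8, SDH1 and SDH2) had a library with 0 T>C reads.

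In mitochondria, Ndi1 and succinate dehydrogenase pass electrons to ubiquinone, the bc1 complex passes them on to cytochrome c, and cytochrome oxidase reduces oxygen with them. Budding yeast lacks the proton-pumping NADH dehydrogenase of most eukaryotes, so that proton pumping falls to the bc1 complex and cytochrome oxidase, and ATP synthase uses the resulting gradient to make ATP. In glucose medium these genes are held at a reduced level, and on carbon sources that must be respired many of them are activated through CCAAT sequences by the Hap2/3/4/5 complex and, with heme, by Hap1.

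SLAM-seq measured newly synthesized RNA. RNA made during a short pulse of 4-thiouracil then gives reads with T>C conversions. The parent strain, Bdf1/2-AID, carries auxin-inducible degron tags with V5 on both BDF2 (KanMX) and BDF1 (URA3) and expresses the OsTIR1 receptor from the GPD1 promoter (HIS3). It is a MATα strain, grown in rich glucose medium, and every other strain derives from it by integration of a BDF1 copy at TRP1 under the BDF1 promoter, so that the tagged proteins and OsTIR1 are shared by all groups. Bdf1 and Bdf2 are BET proteins, which bind acetylated histones through bromodomains (BD1 and BD2) and carry an extra-terminal (ET) domain. The variants used most below lacked the ET domain (ΔET), had alanines in place of its conserved acidic residues (mET(4)), lacked both bromodomains (ΔBD1/2) or had them mutated (mBD1/2), lacked the C-terminal phosphorylation sites alone (ΔCPS) or with the N-terminal ones (ΔNPS/CPS), or had the serines of both regions replaced (mNPS/CPS). ΔCPS, ΔNPS/CPS and mNPS/CPS are called the CPS variants below. WT has an unmodified additional copy. Cells received 1 mM IAA, which depletes the tagged proteins, or DMSO for 25 min and then 5 mM 4-thiouracil for 4 min. There were 6 WT libraries (replicates A to F) and 3 of each of the other 22 strains (A to C) in each treatment. The methods call the replicates biological, and the labels do not say what a replicate letter shares between strains.

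Libraries held 4089393 to 21384793 reads (median 8054872), and T>C reads made up 0.739% to 5.60% of these. STE3, a marker of mating type α, averaged 47.5 to 112 CPM (reads scaled by the library total) in the groups, and STE2, its counterpart in mating type a, 0.318 to 3.00 CPM. The WT libraries fell into 2 sets. The ribosomal protein gene RPL41A took 13.4% to 19.9% of the reads in WT replicates A to C and 3.68% to 4.39% in D to F, and it was similarly high in mET(4) and mBD1/2. T>C CPM (T>C reads scaled by all reads of the library, to the scale of CPM) of 19 of the 33 respiratory genes did not overlap between the sets in IAA, with 7 of them higher in A to C. The log2 ratio of A to C over D to F ran between -2.73 (SDH2) and 1.43 (COX7). Both were computed for the members only, so they do not show whether the split is particular to these genes. The comparisons of ΔET, mET(4), ΔBD1/2 and mBD1/2 with WT are therefore also given for the sets apart. The other variants are set against all 6 WT libraries only. For the sets apart, the median of all genes is given, but not the share of all genes called. Replicate B of mNPS/CPS also stood apart, with the respiratory genes at 0.276% of all reads in DMSO, against 0.727% and 0.684% in replicates A and C. The part of these differences in the results was not tested.

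Promoters are shown because the Hap complex binds CCAAT. In the 300 bases before the start codon (RefSeq sequence, R64 build), the letters CCAAT on either strand occurred in 29 of the 33 genes (87.9%) and in 2510 of 6007 promoters of the same length (41.8%). The nearest match lay 25 to 263 bases before the start codon (median 181). COX4, COR1, CYT1 and CYC1 had no match in this window. TATAAA on either strand was found in 12 members (36.4%), against 48.2% of all promoters. The Hap1 consensus of paired CGG triplets, on either strand, was found in 1 member, QCR6, and in 8 of all promoters (0.133%). A match is a description of letters, not of a site in use. Of the windows, 7 overlap other coding sequence. The promoters of 3 genes at the extremes of the results are printed in the direction of the gene, with any of the 3 motifs in capitals on whichever strand they match. CYC1 fell furthest in the CPS variants, and QCR6 and ATP16 stood at the 2 ends of the change on depletion.
CYC1, chrX:526035-526334, plus strand: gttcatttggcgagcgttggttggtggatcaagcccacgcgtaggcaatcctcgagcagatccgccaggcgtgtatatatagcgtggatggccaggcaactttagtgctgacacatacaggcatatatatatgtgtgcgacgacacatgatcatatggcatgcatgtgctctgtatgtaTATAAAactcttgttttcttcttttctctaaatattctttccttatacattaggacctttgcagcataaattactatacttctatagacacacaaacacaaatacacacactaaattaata
QCR6, chrVI:224770-225069, minus strand: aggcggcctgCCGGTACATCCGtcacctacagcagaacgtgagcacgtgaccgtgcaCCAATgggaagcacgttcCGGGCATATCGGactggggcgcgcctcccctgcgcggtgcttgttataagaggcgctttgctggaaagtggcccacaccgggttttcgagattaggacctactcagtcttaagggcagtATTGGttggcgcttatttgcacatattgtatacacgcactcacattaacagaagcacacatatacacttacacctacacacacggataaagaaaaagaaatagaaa
ATP16, chrIV:442729-443028, plus strand: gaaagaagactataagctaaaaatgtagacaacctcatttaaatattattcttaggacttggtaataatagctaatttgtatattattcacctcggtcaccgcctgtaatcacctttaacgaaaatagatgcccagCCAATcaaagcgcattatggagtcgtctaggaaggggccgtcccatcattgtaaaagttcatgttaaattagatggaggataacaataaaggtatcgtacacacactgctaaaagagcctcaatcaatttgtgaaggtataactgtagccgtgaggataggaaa

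For the members with the most T>C reads in their complex, and for COX12 and NDI1, which are described below, a window of 30 bases around the CCAAT match nearest to the start codon is printed in the direction of the gene. The capitals mark the match, which reads ATTGG where it lies on the other strand.
ATP14, chrXII:722553-722582, minus strand: gccatacacgaaCCAATtatgcatcataaa
COX7, chrXIII:779272-779301, minus strand: aggcagtacttgATTGGctacgccgcgcat
COX12, chrXII:225360-225389, minus strand: tcataacattgaCCAATcaattttcagaaa
QCR7, chrIV:1496712-1496741, minus strand: atcttgttttgaCCAATcaggagcgacgcg
SDH3, chrXI:179626-179655, plus strand: aaccaaaaattgCCAATcacaagctctaag
NDI1, chrXIII:29875-29904, minus strand: gagttttaactaCCAATtgaggagtttcag

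Before depletion the respiratory genes were high among all genes in reads and low in the part of them that was newly made. In Bdf1/2-AID in DMSO, levels in T>C CPM ran between 1.16 (SDH1) and 18.1 (COX9), with a median of 5.87. The median percentile of the members among all genes tested was 79.6 in T>C reads, 85.3 in total reads and 18.2 in the T>C share, the percentage of a gene's reads that are T>C reads. The share was 2.13% for ATP2, the beta subunit of the F1 head, and 16.6% for NDI1, the extremes of the group. Regions counted per gene were 430 bases (COX9) to 2173 bases (SDH1) long. These levels are per library and not per length, so they do not rank genes by transcription.

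On depletion of Bdf1/2, changes of the respiratory genes lay above the median change of all genes, and whether the genes were lower or higher depended on the scaling of the libraries. Relative to library totals, 24 of 33 were lower and 0 higher in Bdf1/2-AID after IAA than after DMSO (edgeR quasi-likelihood test, Benjamini-Hochberg adjusted p under 0.05), against 84.3% of all genes lower and 0.339% higher. The median log2 change was -0.93 over the members and -1.86 over all genes, and each of the 33 lay above the median of all genes. Summed over the members, T>C CPM were 136, 130 and 131 in the IAA libraries, against 260, 223 and 220 in the DMSO libraries, and the members' part of all T>C reads was 0.869% in IAA and 0.767% in DMSO. With size factors of the total reads, which moved the median of all genes to -0.80, 0 members were lower and 7 higher, against 35.9% of all genes lower and 8.78% higher. With TMM factors 1 was lower and 5 higher, against 44.8% and 7.26%. With size factors of the T>C reads themselves, chosen after seeing the data, changes are relative to the typical gene: 0 members were lower and 17 higher, against 16.9% of all genes higher. Change across all 5014 genes had a Spearman rho of 0.31 with total read level, 0.25 with T>C level and -0.22 with T>C share. The members are high on both levels and low on the share. Within the 33 members the rho with T>C level was -0.16. The part of read level in the members' place among all genes was not tested. Under T>C size factors, too, 33 members lay above the median of all genes, which was then -0.25.

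ATP synthase subunits had a median log2 change of -1.11 relative to library totals, with 9 of 10 lower. ATP16 (YDL004W), the delta subunit of the central stalk, had 1.74, 1.51 and 0.554 T>C CPM in IAA, against 4.68, 4.07 and 3.86 in DMSO. The groups did not overlap, and replicate C in IAA rested on 5 T>C reads. Its log2 change, the lowest of the members, was -1.76 (SE 0.33, adjusted p = 5.28e-07). ATP14 (YLR295C), subunit h of the peripheral stalk, had 6.81, 7.98 and 6.31 in IAA, against 15.8, 12.4 and 12.6 in DMSO, again with no overlap, and changed by -0.94 (SE 0.19, adjusted p = 2.24e-06). The membrane subunits f (ATP17) and g (ATP20, needed for dimers of the enzyme) both changed by -1.36, the peripheral stalk subunits ATP4, ATP5 and ATP7 by -1.22, -1.04 and -1.17, and the rotor shaft gamma subunit ATP3 by -0.93. The catalytic head changed least. ATP1, its alpha subunit, changed by -0.44 (adjusted p = 0.043), and ATP2 by -0.31, which did not pass the test (adjusted p = 0.15). ATP14 was at 0.13 with size factors of the total reads and at 0.69 with those of T>C reads.

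Cytochrome oxidase had a median of -1.16, with 7 of 8 subunits lower. COX12, subunit VIb, had 2.06, 2.22 and 2.99 T>C CPM in IAA, against 7.64, 5.57 and 6.88 in DMSO, and COX7 (YMR256C), subunit VII, had 7.29, 6.92 and 6.20 in IAA, against 15.5, 13.4 and 19.3 in DMSO. Neither gene's groups overlapped. The changes were -1.45 (SE 0.27) for COX12 and -1.22 (SE 0.19, adjusted p = 6.43e-10) for COX7. COX8 and COX13 were at -1.45 and -1.44, COX6 and COX9 at -1.09 and -1.11, and COX5A, the subunit form made with oxygen, at -0.82. COX4 (-0.43) did not pass the test.

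The bc1 complex was changed least among the larger groups, with a median of -0.61 and 4 of 9 subunits lower (QCR7, QCR8, QCR9 and RIP1). QCR6 (YFR033C), the hinge subunit, had 16.5, 14.2 and 15.1 T>C CPM in IAA, against 15.7, 15.7 and 13.8 in DMSO. These overlap, and the log2 change of 0.0047 (SE 0.17, adjusted p = 0.98) was the highest of the members. QCR7, subunit 7, had 7.13, 7.45 and 6.31 in IAA, against 11.4, 10.2 and 12.6 in DMSO, without overlap (-0.69, SE 0.20, adjusted p = 0.00074). RIP1, the Rieske iron-sulfur protein, changed by -0.87. The core subunit COR1 (-0.16) and cytochrome c1, CYT1 (-0.07), did not pass the test, nor did QCR2 (-0.61) and QCR10 (-0.46). Relative to the typical gene, 8 of 9 subunits were higher. CYC1, cytochrome c, had 8.08, 8.61 and 10.9 in IAA, against 13.5, 15.7 and 11.7 in DMSO, which do not overlap (-0.58, SE 0.18, adjusted p = 0.0021).

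Of the enzymes that feed electrons in, SDH3 and SDH4, the membrane subunits of succinate dehydrogenase, were lower, and SDH1 and SDH2, its catalytic subunits, did not pass the test (-0.79 and -0.47). SDH3 (YKL141W) had 2.85, 3.55 and 2.44 T>C CPM in IAA, against 5.83, 5.75 and 5.70 in DMSO, and changed by -0.95 (SE 0.26, adjusted p = 0.00051). NDI1 had 0.792, 1.42 and 2.44 in IAA, against 4.68, 3.27 and 3.19 in DMSO, and changed by -1.22 (SE 0.32, adjusted p = 0.0003). Neither overlapped, although IAA replicate A of NDI1 had 5 T>C reads. Over all members, T>C CPM did not overlap for 20 of 33, against 81.6% of all genes with every IAA library below. Counted length gave a Spearman rho of 0.39 with the change over the 33 genes, in the direction of smaller falls in longer genes.

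**Figure D1:**
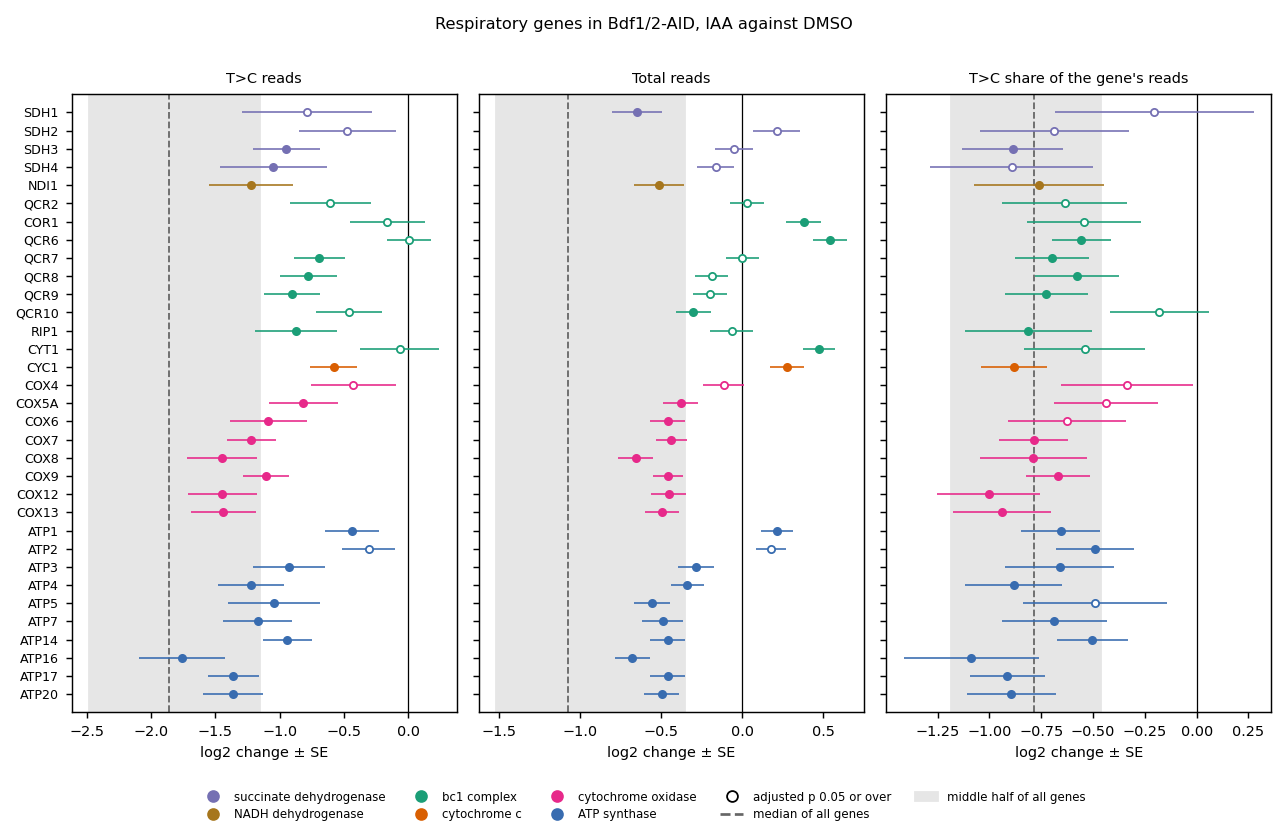
Log2 changes of the 33 genes between IAA and DMSO in Bdf1/2-AID, relative to library totals, with SE bars. The filled points passed the test at adjusted p under 0.05 (24 of 33 for T>C reads), the dashed line marks the median of all genes (-1.86) and the grey band lies between the quartiles of all genes. With size factors of the total reads 0 members were lower and 7 higher in T>C reads.

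In total reads, relative to library totals, 18 members were lower, against 74.0% of all genes, and 5 higher (COR1 0.38, QCR6 0.54, CYT1 0.47, CYC1 0.28 and ATP1 0.21 on the log2 scale), against 5.20% of all genes. The median was -0.30 over the members and -1.07 over all 5869 genes tested, and all 33 lay above it. Under size factors of the total reads 0 were lower and 33 higher, against 34.8% of all genes higher, and with TMM factors 0 lower and 32 higher, against 30.4%. QCR6 had 416.1, 397.6 and 447.4 total CPM in IAA, against 241.5, 326.3 and 298.3 in DMSO, without overlap. ATP16 had the lowest change, -0.68.

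The T>C share of each gene's own reads needs no scaling by library totals, though it still depends on the labeling of each library. It was lower for 22 members and higher for 0, against 38.0% of all genes lower, and ran between -1.09 (ATP16) and -0.18 (QCR10) on the log2 scale, with a median of -0.69 over the members and -0.79 over all genes. Over the members' summed reads it was 2.88% in IAA and 4.51% in DMSO. By complex the fall passed the test for 9 of 10 ATP synthase subunits and 5 of 9 of the bc1 complex. It also passed for 5 of 8 of cytochrome oxidase, CYC1, NDI1 and 1 of 4 of succinate dehydrogenase. The estimate was negative for every member, including those that did not pass. In succinate dehydrogenase SDH3, which passed, was at -0.89, and SDH4, SDH2 and SDH1, which did not, were at -0.89, -0.69 and -0.20. The number of members passing was 14 without IAA replicate C and 13 without DMSO replicate A. In QCR6 the share was 3.96%, 3.57% and 3.37% in IAA, against 6.49%, 4.80% and 4.61% in DMSO, lower without overlap (-0.56, adjusted p = 0.00091), while its T>C CPM overlapped.

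**Figure D2:**
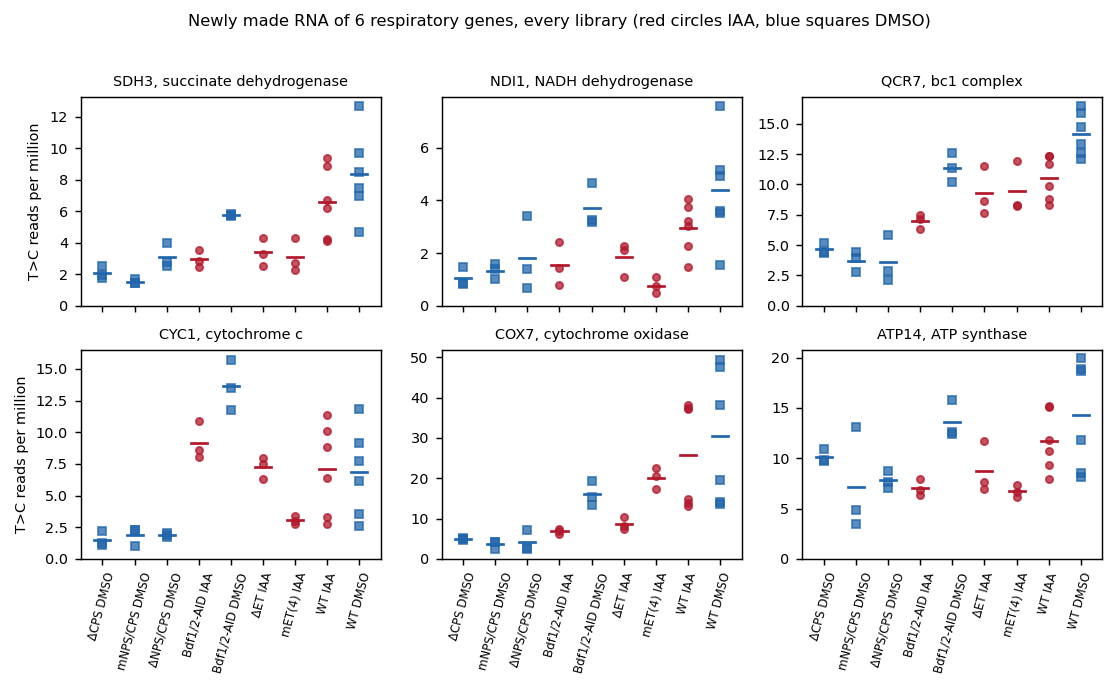
T>C CPM in each library (points) and group means (lines) of the named genes, in ΔCPS, mNPS/CPS, ΔNPS/CPS and Bdf1/2-AID and then in ΔET, mET(4) and WT, with the treatment under each strain. CYC1 lies at 1.00 to 2.31 in the DMSO libraries of the CPS variants and at 11.7 to 15.7 in Bdf1/2-AID, and COX7 forms 2 sets in WT.

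In WT, where an unmodified copy was present, 0 of 33 members and 0% of all genes were lower after IAA by edgeR. At an unadjusted p under 0.05, 1 member was lower (QCR7), against 713 of 5014 genes. The median change was -0.24 over the members and -0.37 over all genes, and 26 members lay above it. The extremes were SDH4 (-0.64) and QCR8 (0.18). QCR7 had 8.29 to 12.3 T>C CPM in IAA (median 10.8) and 12.1 to 16.5 in DMSO (median 14.0). Values of SDH4 overlapped as well. With the replicate letter as a block, ATP16 (-0.62), COX9 (-0.32) and QCR7 (-0.43) were lower (adjusted p = 0.026, 0.020 and 0.014), against 22.9% of all genes.

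The change on IAA was larger in Bdf1/2-AID than in WT for 6 members, in the test of that difference, against 50.1% of all genes. The differences were -0.97 for ATP4, -1.16 for ATP17, -1.44 for ATP20, -1.03 for COX8, -1.40 for COX12 and -1.19 for COX13, all subunits of ATP synthase or cytochrome oxidase. The median difference was -0.65 over the members, against -1.45 over all genes, and all 33 lay above it, with CYT1 highest at 0.27. The count was 12 against WT replicates A to C, 15 against D to F and 15 with the letter as a block. The share of all genes is not given for these settings. It was 2 without IAA replicate C of Bdf1/2-AID, 3 without its DMSO replicate A and 3 without WT IAA replicate B. It was 0 under size factors of the total reads, TMM factors and T>C size factors.

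In ΔET as well, changes lay above the median of all genes and their direction depended on the scaling. In IAA, 14 of 33 were lower in ΔET than in WT relative to library totals, against 78.6% of all genes, and 0 were higher. The median was -0.59 over the members and -1.82 over all genes, and 32 lay above it. Summed T>C CPM were 118, 146 and 168 in ΔET, against 235 to 280 in WT (median 241). With size factors of the total reads 1 was lower (38.0% of all genes) and 5 higher (5.23%), with TMM factors 0 lower and 6 higher (5.56%), and relative to the typical gene 20 were higher, against 14.1% of all genes. Within ΔET, 14 members were lower after IAA than after DMSO, against 68.3% of all genes.

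In ΔET 7 of the 14 lower members were cytochrome oxidase subunits, of which there are 8 (median -1.26), and the other 7 lay in other complexes. Of all genes 78.6% were lower, with a median of -1.82, so that the oxidase median lay above that of all genes. COX12 had 1.54, 3.49 and 2.34 T>C CPM in ΔET and 5.74 to 14.6 in WT (median 8.87), without overlap. Its change of -1.91 (SE 0.37, adjusted p = 7.68e-05) was the lowest of the members. COX7 had 7.45, 8.20 and 10.5 in ΔET, against 37.4, 37.3 and 38.3 in WT replicates A to C and 13.9, 14.9 and 13.1 in D to F. It was lower against either set, by -2.11 and -0.67 on the log2 scale. In ATP synthase ATP4 (-1.56), ATP16 (-0.95), ATP17 (-1.39) and ATP20 (-1.36) were lower, in the bc1 complex QCR8 (-0.76) and QCR9 (-1.01), and SDH3 (-0.95) in succinate dehydrogenase. CYC1 was at 6.27, 7.96 and 7.50 in ΔET, against 3.32, 6.37 and 2.73 in WT replicates A to C and 11.3, 10.1 and 8.84 in D to F, and lay below D to F and, but for 1 library, above A to C (0.04, adjusted p = 0.93, and 0.79 against A to C and -0.47 against D to F). SDH2, with few T>C reads, had the highest change, 0.48. In all, 10 members were below WT without overlap, against 62.4% of all genes.

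Against WT replicates A to C alone 11 members were lower and 4 higher in ΔET, and against D to F alone 23 were lower. Medians were -0.19 over the members and -1.61 over all genes against A to C, and -0.77 and -1.95 against D to F. Above the median of all genes lay 27 members against A to C and 33 against D to F. Both sets gave a fall for 10 members: COX6, COX7, COX8, COX9, COX12, COX13, ATP4, ATP17, ATP20 and QCR8. Without ΔET replicate A the count was 8. Change correlated with counted length over the 33 genes (Spearman rho 0.50).

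The mET(4) variant gave a different order. Of 33 members, 18 were lower than WT in IAA, against 67.0% of all genes, with a median of -0.87 over the members and -1.35 over all genes, and 29 lay above it. Size factors of the total reads gave 0 lower, against 3.01% of all genes, and TMM factors 0, against 3.89%, and relative to the typical gene 1 was higher (QCR7), against 5.21% of all genes. NDI1 had 0.473, 1.08 and 0.726 T>C CPM in mET(4) and 1.48 to 4.05 in WT (median 3.12), without overlap (-1.94, SE 0.46, adjusted p = 0.002). CYC1 had 2.72, 3.36 and 3.01 in mET(4), against 3.32, 6.37 and 2.73 in WT replicates A to C and 11.3, 10.1 and 8.84 in D to F, so that it overlapped the first set and not the other. Its change was -1.22 (adjusted p = 0.013), -0.47 against A to C and -1.73 against D to F. COX7, at 17.2, 22.5 and 20.6, lay below A to C (-0.90) and above D to F (0.53, adjusted p = 0.013). The highest change was that of QCR7, -0.16. By complex 6 of 10 ATP synthase, 5 of 8 cytochrome oxidase, 3 of 9 bc1 and 2 of 4 succinate dehydrogenase subunits were lower.

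Counts in mET(4) rested on single libraries. Without mET(4) replicate A 5 members were lower, and without replicate C 9. Against WT A to C alone the count was 13 and against D to F 22, and ATP4, ATP5, COX8, COX13, QCR8 and NDI1 were lower against both. The medians of members and all genes were -0.61 and -1.16 against A to C, and -1.05 and -1.47 against D to F. Above the median of all genes lay 30 members against A to C and 24 against D to F. In 8 members mET(4) lay below WT without overlap, against 46.0% of all genes. Within mET(4), 5 members were lower after IAA than after DMSO, against 42.9% of all genes. The correlation with counted length was -0.33, the other sign than in ΔET. In IAA, RPL41A took 16.2% to 19.4% of the reads in mET(4) and 4.21% to 5.26% in ΔET. For the order of the genes, the variant and this difference between libraries cannot be told apart.

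In the bromodomain variants few members passed the test. In ΔBD1/2, 5 members were lower than WT in IAA (COX6 -1.42, COX7 -1.59, COX9 -1.04, COX12 -1.70 and ATP20 -0.95), against 19.4% of all genes, with a median of -0.25 over the members and -0.60 over all genes. COX12 had 2.09, 4.17 and 2.21 T>C CPM in ΔBD1/2, below every WT library. CYC1 had 12.9, 15.0 and 12.8, above every WT library, and did not pass the test (0.94, adjusted p = 0.062). COX6, COX7 and COX12 were lower against either WT set. Against A to C alone 8 were lower and 7 higher, against D to F alone 7 lower and 0 higher, and with the replicate letter as a block 8 lower and 7 higher. For the block, too, the share of all genes is not given. The medians of members and all genes were -0.06 and -0.38 against A to C, and -0.46 and -0.73 against D to F. Above the median of all genes lay 21 members against A to C and 28 against D to F. Without ΔBD1/2 replicate A, B or C 2 were lower, and without WT replicate A or B 3. Size factors of the total reads gave 0 lower and 3 higher, against 5.84% of all genes higher. In mBD1/2, 0 members were lower by edgeR, against 0.439% of all genes, and 1 by DESeq2, for which no share is given. At an unadjusted p under 0.05 by edgeR, 1 member was below WT and 0 above it. Over all genes these were 1164 and 126 of 5014. The mBD1/2 median was 0.02 over the members and -0.52 over all genes, with NDI1 at -1.40 (adjusted p = 0.069) and QCR9 at 0.51. Against A to C alone 0 members were lower and 2 higher, and against D to F alone 6 lower and 3 higher. In mBD1/2 the medians of members and all genes were 0.04 and -0.32 against A to C, and -0.25 and -0.67 against D to F. Above the median of all genes lay 31 members against A to C and 26 against D to F.

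**Figure D3:**
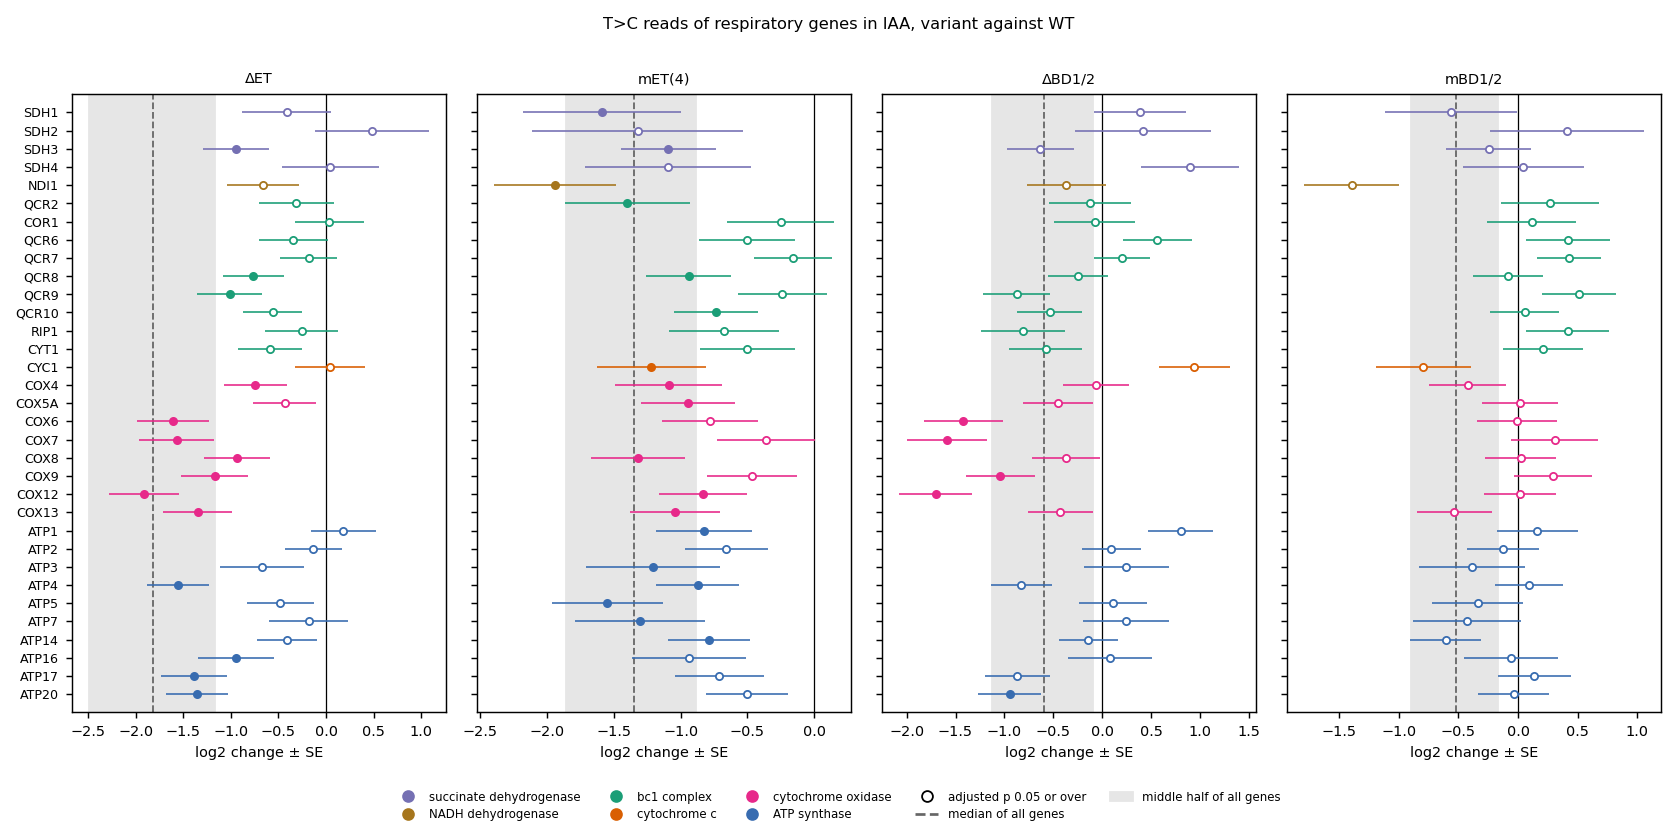
Log2 changes of T>C reads in IAA between each variant and WT, relative to library totals, with SE bars, for the 33 genes. Filled points passed the test at adjusted p under 0.05 (14, 18, 5 and 0 members in the panels' order), the dashed line is the median of all genes and the grey band lies between the quartiles of all genes. Under size factors of the total reads 1, 0, 0 and 0 members were lower.

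With the tagged proteins still present, in DMSO, the respiratory genes were lower in the 3 CPS variants than in Bdf1/2-AID relative to library totals. Their medians lay below that of all genes, whereas few members were lower relative to the typical gene. In ΔCPS 33 of 33 were lower, against 76.3% of all genes, with a median of -1.53 over the members and -1.20 over all genes, and 6 lay above it. In mNPS/CPS 31 were lower, against 62.9%, with medians of -1.67 and -1.28. In ΔNPS/CPS 32 were lower, against 68.5%, with medians of -1.42 and -1.27. The 3 comparisons share the Bdf1/2-AID libraries. The paper reports that the mNPS/CPS and ΔNPS/CPS strains grew slowly with the tagged proteins present. It describes the CPS variants as dominant-negative and left these strains out of its further analysis. The part of slow growth in the changes given here was not tested. Size factors of the total reads gave 33 lower in ΔCPS (80.6% of all genes), 32 in mNPS/CPS (75.6%) and 32 in ΔNPS/CPS (82.5%). Relative to the typical gene 6 were lower in ΔCPS (2.27% of all genes), 1 in mNPS/CPS (0.160%) and 1 in ΔNPS/CPS (2.11%). Summed T>C CPM were 81.9, 81.4 and 83.5 in ΔCPS, 62.1, 80.6 and 76.0 in mNPS/CPS, and 70.8, 107 and 74.6 in ΔNPS/CPS, against 260, 223 and 220 in Bdf1/2-AID. Other changes of these regions did not give this fall. In mCPS, with the C-terminal serines replaced, 0 members were lower in DMSO (0.658% of all genes), with medians of 0.09 over the members and -0.26 over all genes. In pNPS/CPS, with glutamates for the serines of both regions, 0 were lower (0.279%), with medians of -0.14 and -0.06.

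CYC1 (YJR048W) had the lowest change in each of the 3. It had 2.16, 1.24 and 1.09 T>C CPM in ΔCPS, 2.31, 1.00 and 2.26 in mNPS/CPS and 2.02, 1.71 and 1.90 in ΔNPS/CPS, against 13.5, 15.7 and 11.7 in Bdf1/2-AID. Every library of the variants was below every library of Bdf1/2-AID. The log2 changes were -3.22 in ΔCPS (SE 0.24, adjusted p = 4.24e-37), -2.88 in mNPS/CPS (SE 0.46, adjusted p = 1.69e-06) and -2.86 in ΔNPS/CPS (SE 0.28, adjusted p = 4.02e-22), and relative to the typical gene they were -2.04, -1.51 and -1.59. In total reads CYC1 had 43.6, 40.3 and 36.3 CPM in ΔCPS, 190, 28.9 and 184 in mNPS/CPS and 121, 124 and 148 in ΔNPS/CPS, against 226, 200 and 233 CPM in Bdf1/2-AID.

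The bc1 subunits COR1 (-2.84) and RIP1 (-2.09) and the oxidase subunit COX6 (-2.09) followed in ΔCPS. ATP14 had the highest change there, with 9.72, 10.9 and 9.85 T>C CPM in ΔCPS, against 15.8, 12.4 and 12.6 in Bdf1/2-AID (-0.43, SE 0.18, adjusted p = 0.026). Relative to the typical gene it was higher (0.77). Its total reads lay at 314.6 to 325.4 CPM in ΔCPS, against 179.4 to 194.3 CPM in Bdf1/2-AID, without overlap. In mNPS/CPS, SDH2 (-0.75) and ATP5 (adjusted p = 0.056) did not pass the test, and in ΔNPS/CPS SDH1 (-0.57) did not. T>C CPM did not overlap in 30, 29 and 29 members in ΔCPS, mNPS/CPS and ΔNPS/CPS, against 72.8%, 66.2% and 68.5% of all genes. In mNPS/CPS the count was 19 without Bdf1/2-AID replicate A. Replicate B, which stands apart, had 13.1 T>C CPM of ATP14, against 3.51 and 4.85 in A and C, and without it 33 members were lower. Library numbers run by strain, so that any batch of libraries and the variant cannot be told apart.

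**Figure D4:**
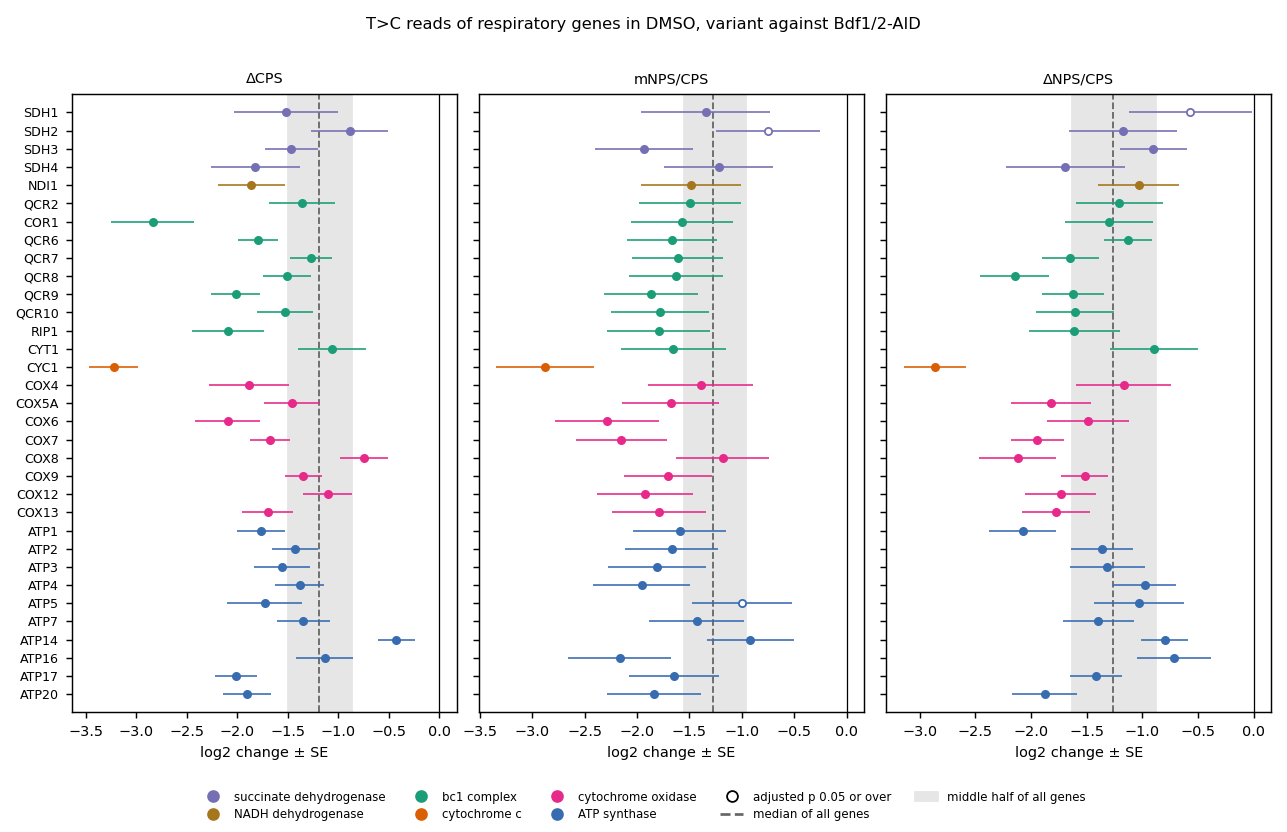
Log2 changes of T>C reads in DMSO between each CPS variant and Bdf1/2-AID, relative to library totals, with SE bars. Filled points passed the test (33, 31 and 32 of 33 in the panels' order), the dashed line is the median of all genes and the grey band lies between the quartiles of all genes. CYC1 is lowest in each panel, and relative to the typical gene 6, 1 and 1 members were lower.

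The same 3 variants were low in IAA as well. Against WT, 29 members were lower in ΔCPS (79.7% of all genes), 29 in ΔNPS/CPS (82.9%) and 32 in mNPS/CPS (84.5%), and relative to the typical gene 1, 0 and 0 were. In the other 14 variants examined in IAA, at most 8 members were lower (ΔB/BID, where 21.6% of all genes were lower). In mBD1 and mBD2 0 were lower and 16 higher than in WT, against 15.9% and 12.4% of all genes higher, and in mET(2) 8 were higher, against 4.89%. Within strains, Bdf1/2-AID was the only one of 23 in which over 16 members were lower after IAA than after DMSO. Besides ΔET and mET(4), ΔB/BID had 8 lower (40.2% of all genes) and ΔB 6 (37.2%), these being variants without motif B, alone or with the BID region. The median of the members lay above that of all genes in each of the 23 strains, by 0.033 (ΔCPS) to 0.93 (Bdf1/2-AID) on the log2 scale.

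In DMSO, 4 further variants, with 2 of the acidic residues of the ET domain replaced by alanine (mET(2)), with the first or the other bromodomain mutated (mBD1, mBD2) or without the N-terminal phosphorylation sites (ΔNPS), were higher than Bdf1/2-AID in over 16 members. They were mET(2) with 23 higher (37.0% of all genes), mBD1 with 22 (46.0%), mBD2 with 20 (41.6%) and ΔNPS with 19 (30.9%). Relative to the typical gene the members higher numbered 12 in mET(2) (7.46% of all genes), 14 in mBD1 (14.7%), 11 in mBD2 (11.2%) and 10 in ΔNPS (8.84%). Summed T>C CPM were 521 ± 45 in mET(2), 564 ± 43 in mBD1, 520 ± 29 in mBD2, against 234 ± 22 in Bdf1/2-AID (SD, n = 3 each). The 3 libraries of ΔNPS lay at 407.8 to 454.9. RPL41A took 1.44% to 2.65% of the reads of these 4 variants in DMSO, against 3.47% to 4.71% in Bdf1/2-AID, and its part in the result was not tested.

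**Figure D5:**
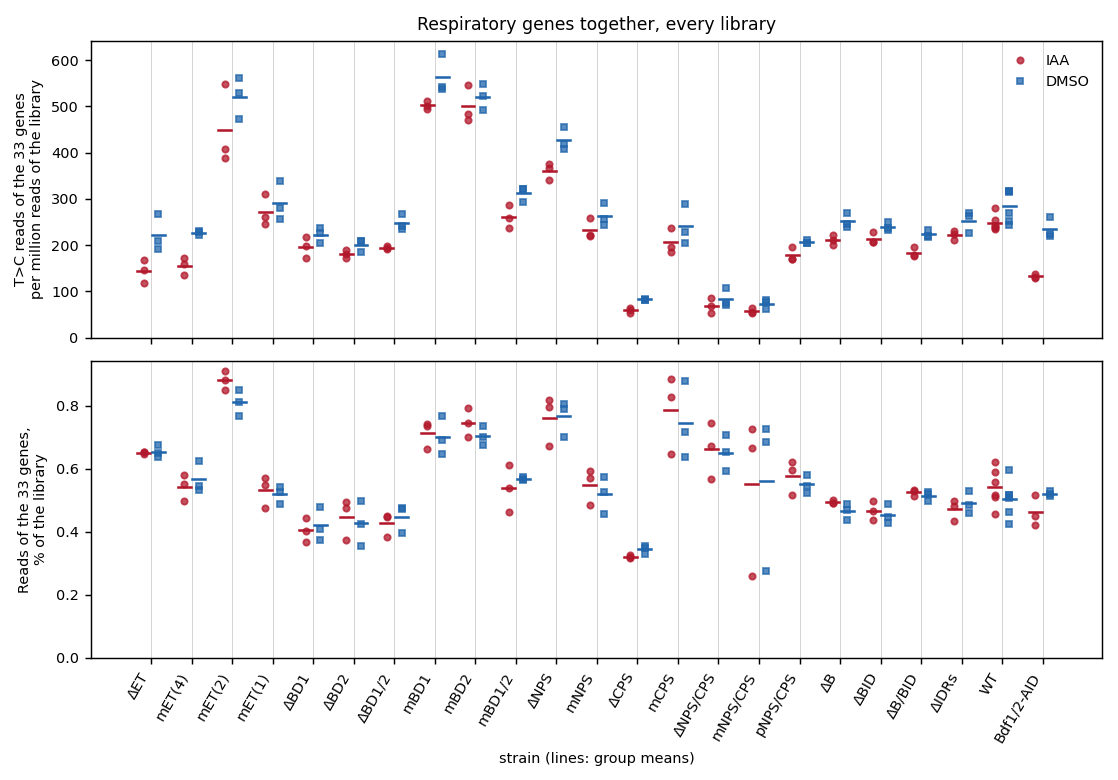
Summed T>C CPM of the 33 genes in each library of the 23 strains, IAA left of DMSO within each strain. Bdf1/2-AID lies at 130 to 136 in IAA and 220 to 260 in DMSO, and the 3 CPS variants lie at 62.1 to 107 in DMSO.

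Other genes of the pathway were counted in the same way. On depletion in Bdf1/2-AID, 31 of 33 tested assembly factors, which build the complexes, were lower relative to library totals (median -2.25). So were 7 of 11 citric acid cycle genes (-0.87), 8 of 11 other subunits and regulators (-1.25) and 3 of 5 transcription factors (-2.08). The share of all genes was 84.3%. The cycle gene CIT1, citrate synthase, was at -0.07 (adjusted p = 0.79), and KGD1, of the oxoglutarate dehydrogenase, fell by 2.67. HAP4, the activating subunit of the CCAAT-binding complex, changed by -0.97 and HAP3 and HAP5, which bind DNA, by -3.34 and -3.23, while HAP1 was at 0.04 (adjusted p = 0.92). In ΔET 30 of 33 assembly factors were lower (-1.92) and 2 of 11 cycle genes (-0.54), against 78.6% of all genes. Of 7 subunits encoded in mitochondrial DNA 3 could be tested, and in mET(4) these were higher (COX1 1.22, COB 1.96 and OLI1 1.89). In mBD1/2 their median against WT was 1.396, although 0 passed the test. It was 0.114 in ΔET and -0.051 in ΔBD1/2. RPL41A was high in both mET(4) and mBD1/2, and its part in this was not tested. In ΔCPS in DMSO 24 of 33 assembly factors were lower (-1.15), as were 11 of 11 other subunits and regulators (-1.91) and 9 of 11 cycle genes (-1.43), against 76.3% of all genes, so that the assembly factors were near that share. These lists were fixed by function and are described by their counts.

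The CCAAT match was set beside the changes as a description. In Bdf1/2-AID the 29 members with a match had a median change of -0.95 and the 4 without one -0.30, relative to library totals. In IAA, against WT, the medians were -0.66 and -0.27 in ΔET and -0.87 and -0.80 in mET(4). In DMSO they were -1.67 and -1.61 in mNPS/CPS, -1.49 and -1.23 in ΔNPS/CPS and -1.52 and -2.36 in ΔCPS. Of these comparisons, only ΔCPS gave the 4 genes without a match the lower median. A part of the motif in the changes was not tested. CYC1, with no CCAAT in the 300 bases printed above, and COX6, with 2 matches, both fell by over 2 on the log2 scale in ΔCPS.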

How the data were processed

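Members and gene lists were chosen with earlier results of these data known. The authors trimmed reads with fastp (0.23.2) and bbduk, aligned and counted them with SLAM-DUNK on the R64-3-1 annotation including 3′ untranslated regions, and deposited per library and gene raw counts of all reads and of T>C reads, which carry at least 2 conversions. Counting used every gene of the 6465 in the files, and 6462 matched RefSeq by name. Groups were taken from the strain and treatment labels.

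T>C counts were tested with edgeR 4.0.16 (quasi-likelihood, robust; R 4.3.3) relative to library totals, on the compared libraries only, for genes with a mean of at least 5 T>C reads over the 144 libraries. Total reads were tested at a mean of at least 10, and the T>C share with the gene's own total reads as offset. P-values were adjusted by Benjamini-Hochberg at 0.05. Levels are T>C reads scaled by all reads of the library (T>C CPM, or CPM for total reads). Named genes were those with the most T>C reads in each complex and the extremes of each comparison, and others named were chosen after their values were seen. Alternatives were size factors and DESeq2 1.42.0, TMM factors, other filters, the WT sets, each library left out and the replicate letter as a block. The scripts were tested on simulated data.

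Replicate letters paired the WT libraries by correlation of deviations from group means (lowest r 0.42 over 6 pairs and 2751 genes), but within replicates A to C the lowest r was 0.069 and within D to F 0.0048. In Bdf1/2-AID the lowest was 0.013. Libraries held 4089393 to 21384793 reads and 34354 to 998627 T>C reads, and the small T>C counts of the lowest members limit their precision.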

Additional observations from a re-analysis of the deposited data

Results flagged for a closer look

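In the edgeR test of the difference between strains, 6 members fell further on IAA in Bdf1/2-AID than in WT, relative to library totals. The difference was -0.97 for ATP4 (adjusted p = 0.031), -1.16 for ATP17 (0.034), -1.44 for ATP20 (0.0054), -1.03 for COX8 (0.034), -1.40 for COX12 (0.013) and -1.19 for COX13 (0.017). The median over all genes was -1.45, so that each of the 6 lay above it, and 0 passed under the other library scalings. Among the 6 WT libraries of each treatment, 9 measures were examined for a single library far from the others, 18 tests in all, and 0 passed the limit. Such a test does not see 2 sets of 3 libraries.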

How the results depend on the processing

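Scaling decided most calls. With size factors of the total reads, members lower numbered 0 in Bdf1/2-AID, 1 in ΔET, 0 in mET(4), 0 in ΔBD1/2, 0 in total reads and 0 in the difference from WT, and 0 strains had over 16 members lower on IAA. With TMM factors the same counts were 1, 0, 0, 1, 0 and 0, and 0 strains. With T>C size factors, chosen after seeing the data, they were 0 in Bdf1/2-AID, ΔET, mET(4), ΔBD1/2 and the difference, 6 in ΔCPS, 1 in mNPS/CPS and 1 in ΔNPS/CPS, with 0 strains on IAA and 0 further variants against WT. Single genes changed sign under size factors of the total reads in Bdf1/2-AID (ATP14 0.13, QCR7 0.38, CYC1 0.49, SDH3 0.12), ΔET (SDH3 0.016), mET(4) (ATP14 0.088) and total reads (ATP14 0.61, COX7 0.64, SDH3 1.02, NDI1 0.56, ATP16 0.39). Under TMM factors they did in Bdf1/2-AID (QCR7 0.23, CYC1 0.35), ΔET (QCR7 0.78, SDH3 0.055), mET(4) (ATP14 0.036) and total reads (ATP14 0.46, COX7 0.49, SDH3 0.88, NDI1 0.41, ATP16 0.25). Under T>C size factors they did in Bdf1/2-AID (ATP14 0.69, COX7 0.40, QCR7 0.93, CYC1 1.04, SDH3 0.68, NDI1 0.40), ΔET (ATP14 1.28, COX7 0.0021, QCR7 1.47, SDH3 0.73, NDI1 1.00), mET(4) (ATP14 0.45, QCR7 1.04, CYC1 0.047, SDH3 0.13), ΔCPS (ATP14 0.77), mNPS/CPS (ATP14 0.31) and ΔNPS/CPS (ATP14 0.48, SDH3 0.38, NDI1 0.23). Against WT D to F alone COX7 was at 0.53 in mET(4). The causes were not tested.

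Against WT A to C alone 8 members were lower in ΔBD1/2 and 12 in the difference, and against D to F alone 23 in ΔET, 6 in mBD1/2 and 15 in the difference. DESeq2 gave 1 in mBD1/2. With the replicate letter as a block 3 members were lower in WT, 8 in ΔBD1/2 and 15 in the difference, and the other counts stayed within 1.5 times. Leaving out 1 library gave 22 to 26 in Bdf1/2-AID, 8 to 15 in ΔET, 5 to 20 in mET(4), 2 to 7 in ΔBD1/2, 0 to 1 in mBD1/2, 30 to 33 in ΔCPS, 19 to 33 in mNPS/CPS, 26 to 32 in ΔNPS/CPS, 16 to 21 in total reads, 13 to 23 in the T>C share and 2 to 8 in the difference. Small T>C counts limit SDH1, SDH2 and NDI1 most.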
